A study of Mus musculus with 4 samples.

Results

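The SOCS family consists of cytokine-inducible inhibitors of JAK-STAT signalling, and its 8 genes Socs1 to Socs7 and Cish were followed in mouse dendritic cells given the histone deacetylase inhibitor SAHA (vorinostat). Every probe set annotated to these genes was taken, 24 in all, and where a gene had several, the probe set with the highest mean value reported it. All 8 genes were measured, of 18194 genes on the Affymetrix array. The cells came from C57BL/6 marrow, pooled from 3 or more mice in each experiment and grown over 7 days in GM-CSF plus IL-4 (10 ng/ml of each), and were positively selected for CD11c to a stated purity of 95%. The control group was 2 arrays of cells given diluent, and the SAHA group was 2 arrays of cells given SAHA at a dose written as 500 nm, both for 12 hours. All 4 arrays therefore carried cells kept in cytokines that signal through JAK kinases, and CD11c is the only marker by which they were selected, per the labels. Titles in the labels number the arrays as biological replicates but do not state whether each had its own marrow pool, so the p-values below measure the spread between these arrays.

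When a cytokine engages its receptor, JAK kinases phosphorylate the receptor and the STAT transcription factors that dock on it, and STAT dimers move to the nucleus. Socs1, Socs2, Socs3 and Cish are known as target genes of STATs, and their proteins bind back to the receptor or the kinase through an SH2 domain and close a negative feedback loop. The SOCS box at the other end of each protein recruits elongins and a cullin, which together form a ubiquitin ligase. In dendritic cells GM-CSF acts mainly through JAK2 and STAT5, and IL-4 through STAT6.

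STAT dimers bind palindromes of the form TTCNNNGAA, and STAT6 prefers a longer form with 4 free bases between TTC and GAA. Both motifs read the same on either strand, so a search of 1 strand covers both. They were searched for in the RefSeq promoter windows of Cish, Socs1, Socs3 and Socs4, which run from 250 bases before to 50 bases after a transcript start (GRCm38.p6). Socs2, Socs5, Socs6 and Socs7 were not searched. The stretches that hold a match are given because they show the letters of the motif in these genes, with the motif in capitals.
Cish: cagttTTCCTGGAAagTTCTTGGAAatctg
Socs3: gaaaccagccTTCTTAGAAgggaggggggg
The Cish stretch is chr9:107296654-107296683 on the plus strand, and its first match begins on the first annotated base of the gene. The Socs3 stretch is chr11:117969501-117969530 on the minus strand, and its match begins 154 bases before the transcript start. Cish thus had 2 matches to TTCNNNGAA and Socs3 had 1. At least 1 match was found in 8.3% of the 32851 promoter windows of that length, and 2 or more in 0.457%. The longer form, found in 6.95% of all windows, had no match in these 4 windows, so no matches overlapped, and the windows of Socs1 and Socs4 held neither motif. A match describes the letters only, and no binding was measured here.

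No SOCS family gene passed the threshold between SAHA and control cells (limma across all genes, two-sided, Benjamini-Hochberg adjusted p under 0.05). Over all genes 2.23% passed, 1.52% as higher and 0.709% as lower with SAHA, so 0 of 8 is near that background. Of the 8 genes 2, Cish and Socs2, had an unadjusted p under 0.05, beside 18.1% of all genes. Cish and Socs2 are both known as genes that STAT5 induces, and their values lay on opposite sides of control. The 8 changes spanned -0.71 for Socs2 to 1.08 for Cish on the log2 scale, with 6 above 0 and 2 below. Their median was 0.30 beside a median of -0.05 over all genes. Over genes above the median level, where all 8 lay, the median was 0.03. The median size of the change was 0.36 in the family and 0.17 over all genes. The groups did not overlap in 4 of the 8 genes, beside 50.7% of all genes. Both SAHA arrays were the higher ones in 3 of them (Cish, Socs4 and Socs6; 21.1% of all genes) and the lower ones in 1 (Socs2; 29.6%).

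The arrays correlated at 0.983 to 0.995 across genes, with control replicate 2 and SAHA replicate 1 the least alike. In total 405 genes passed, but 31 did so without SAHA replicate 1 and 90 without SAHA replicate 2. With 2 arrays against 2, an exact two-sided permutation test of a single gene could not go below 0.333. All 9 dendritic cell markers, Itgax, Flt3 and Zbtb46 among them, were above the 25th percentile on all 4 arrays, and none passed the threshold. So were all 6 measured macrophage markers, among them Lyz2, Csf1r and Adgre1 with means over the 4 arrays of 14.8, 13.9 and 11.9. None of these macrophage markers passed, and all 6 had changes below 0, with a list median of -0.12. Mertk came nearest to the threshold, at -0.92 (limma adjusted p = 0.0509). The dendritic cell list also had a median of -0.12, with 6 of 9 changes below 0 and Dpp4 nearest at -0.87 (0.0909). Among 9 neutrophil markers 5 passed as lower with SAHA and 1, Prtn3, as higher, and their summed linear level was 3450 to 3453 in control and 2183 to 2243 in SAHA arrays. The part of this shift in the values of the SOCS family was not tested, and in bulk RNA fewer cells of a type and less RNA per cell cannot be told apart. Of the 5 mast cell and basophil markers measured, 1 was above the 25th percentile on all arrays, as were 2 of 4 T cell and 3 of 4 B cell markers. So were 3 of 3 NK cell, 3 of 3 red cell precursor and 3 of 4 plasmacytoid dendritic cell markers. This mark, the 25th percentile of probe sets, was 3.94 to 4.04, below the 25th percentile of genes at 4.31 to 4.49. Most genes lie above it, so it does not tell cell types apart.

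**Figure D1:**
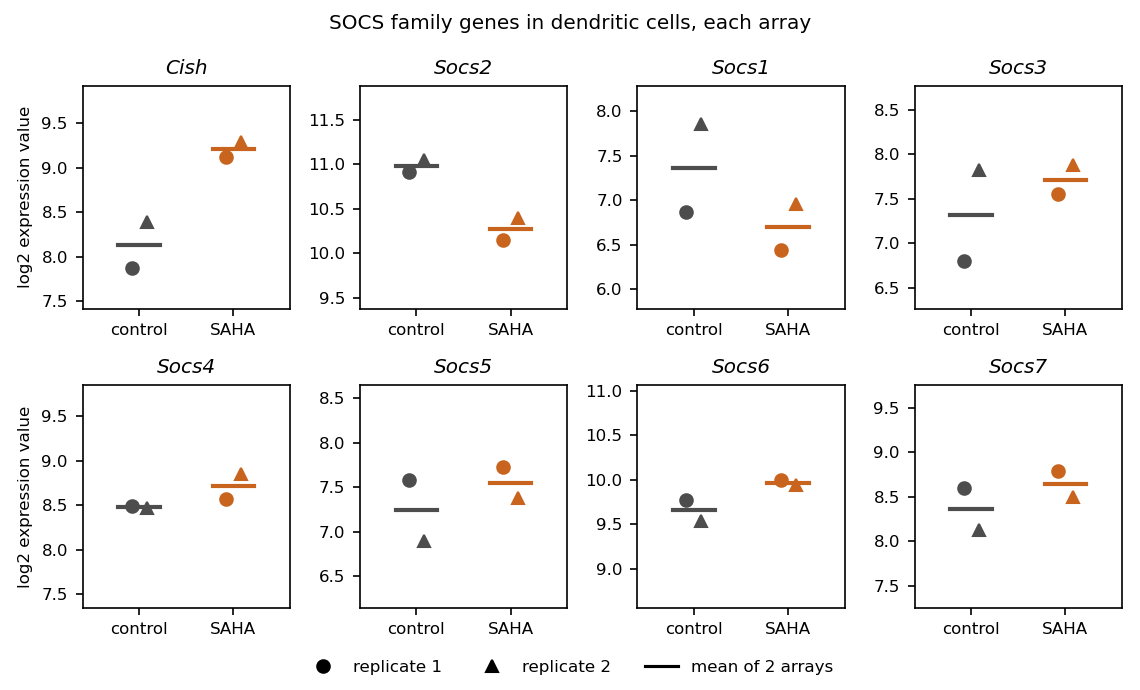
Deposited log2 expression values (vertical axes, each spanning 2.5 log2 units) of the 8 SOCS family genes in control (grey) and SAHA (orange) cells, with a circle for replicate 1, a triangle for replicate 2 and a bar for the mean of 2 arrays. Cish lies higher and Socs2 lower in both SAHA arrays, while the control arrays of Socs1 and Socs3 lie about 1 log2 unit apart.

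Cish encodes CIS, the founding member of the family, which is induced by STAT5 and binds phosphorylated cytokine receptors at sites that STATs also use. Its log2 value was 7.87 and 8.39 in the control arrays and 9.12 and 9.29 in the SAHA arrays. Both SAHA arrays thus lay above both control arrays, the nearest pair by 0.73. The means were 8.13 ± 0.36 and 9.21 ± 0.12 (SD, n = 2 per group), a 2.11-fold ratio with a 95% interval of 1.50 to 2.97. The log2 change of 1.08 ± 0.21 (SE) had an adjusted p of 0.0587 (limma) and did not pass, and it was larger in size than that of 98.0% of genes. Without control replicate 2, the higher of the control arrays, the change was 1.33 ± 0.20 and passed (limma adjusted p = 0.0235), and without control replicate 1 it was 0.82 ± 0.20 (0.0761). It also missed the threshold without SAHA replicate 1 (1.16, limma adjusted p = 0.223) and without SAHA replicate 2 (0.99, 0.198). Cish had 1 probe set, so no other probe set could be set beside it.

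Socs2 encodes the inhibitor best known for restraining growth hormone signalling, and it too is a STAT5 target. Its log2 value was 10.92 and 11.05 in control and 10.15 and 10.40 in SAHA arrays. Both SAHA arrays lay below both control arrays, the nearest pair by 0.52, which is more than the gap of 0.13 between the control arrays and that of 0.25 between the SAHA arrays. Control cells had a mean 1.64-fold that of SAHA cells, and the log2 change was -0.71 ± 0.15 (SE, 95% interval -1.06 to -0.36, limma adjusted p = 0.0669). It missed the threshold without any 1 of the 4 arrays, with changes from -0.59 without SAHA replicate 1 to -0.84 without SAHA replicate 2.

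Socs2 was covered by 6 probe sets, and all 6 changes were below 0. Beside the reporting 1449109_at, the probe set 1418507_s_at read 9.19 and 9.49 in control and 8.40 and 8.95 in SAHA arrays. The probe set 1438470_at read 7.71 and 7.96 in control and 6.97 and 7.28 in SAHA arrays. In these the change was -0.66 and -0.71, and the groups did not overlap in either. Probe sets 1446085_at and 1442586_at gave smaller changes of -0.40 and -0.37, and 1441476_at, which lay close to the 25th percentile of its arrays, gave -0.06. Probe sets of 1 gene read the same RNA and are not replicates. Averaged over the 6 probe sets the change of Socs2 was -0.49.

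**Figure D2:**
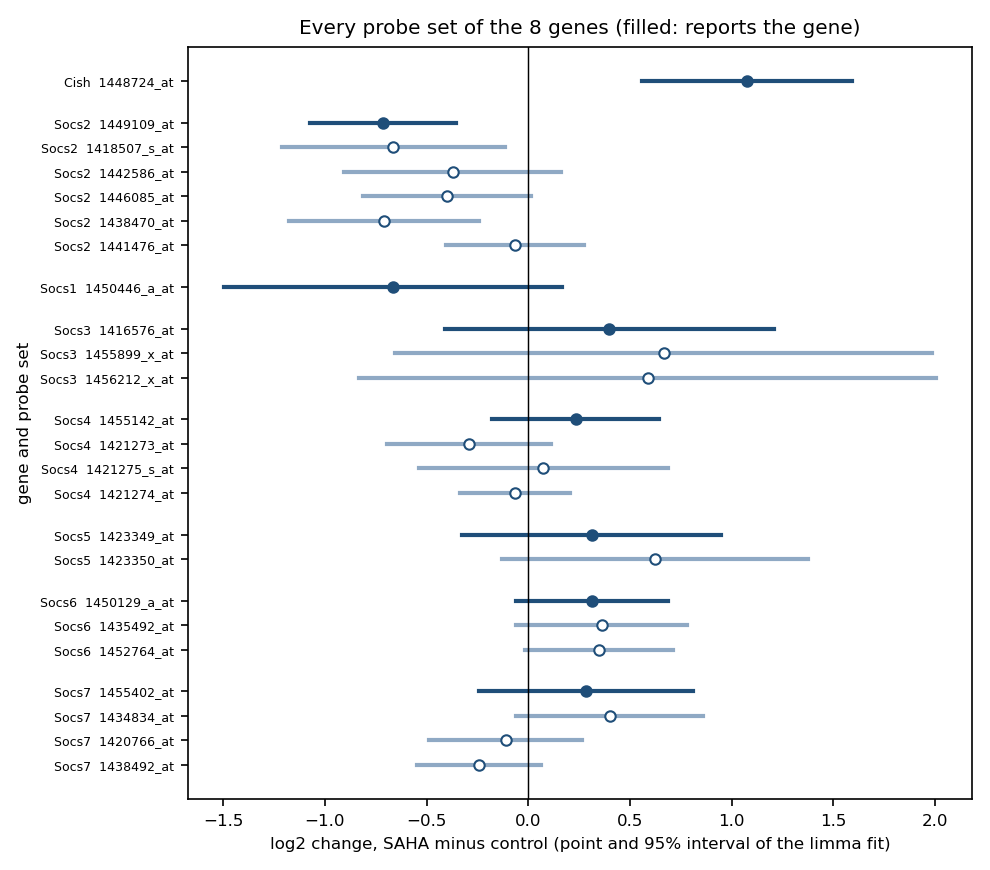
Log2 change, SAHA minus control (horizontal axis), of all 24 probe sets of the 8 genes (vertical axis), with a point for the estimate and a line for its 95% interval in a limma fit over all probe sets. Filled points mark the probe set that reports the gene. All 6 Socs2 probe sets lie below 0 and all 3 of Socs3 and of Socs6 above it, and those of Socs4 and Socs7 lie on both sides.

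Socs1 and Socs3 are the members that can block JAK kinases directly, through a short kinase inhibitory region before the SH2 domain. Socs1 is the main brake on interferon and IL-4 signalling, and Socs3 on signalling through gp130 and the G-CSF receptor. Socs1 read 6.87 and 7.85 in control and 6.44 and 6.96 in SAHA arrays. Between arrays of the same number, SAHA minus control was -0.43 for replicate 1 and -0.90 for replicate 2. The labels do not say that a number marks a shared culture, so the fit did not use it. The groups overlapped, since SAHA replicate 2 lay above control replicate 1, and the change of -0.66 ± 0.34 (SE, 95% interval -1.49 to 0.16, limma adjusted p = 0.372) was smaller than the gap of 0.98 between the control arrays. It was -0.17 when control replicate 2 was left out and -1.16 when control replicate 1 was, and missed the threshold in both (limma adjusted p = 0.847 and 0.0591).

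Socs3 read 6.81 and 7.83 in control and 7.55 and 7.88 in SAHA arrays. Control replicate 1 was the low array and the other 3 lay within 0.33 of each other, so the groups overlapped. The change of 0.40 ± 0.33 (SE, 95% interval -0.40 to 1.20, limma adjusted p = 0.568) became -0.11 when control replicate 1 was left out, and 0.91 when control replicate 2 was. Its 2 other probe sets, both of the x type that can share sequence with other transcripts, showed the same low array, at 6.16 and 6.07 in control replicate 1 against 7.997 and 8.098 in control replicate 2. Their SAHA values were 7.50 to 7.99, and their changes 0.67 and 0.59.

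The gaps between the control arrays in Socs1 (0.98) and Socs3 (1.02) were larger than in 98.7% and 98.8% of all genes, whose median gap was 0.17. That of Socs2 was larger than in 41.9% and that of Socs4 (0.03) than in 9.0%. Among the 8 genes the precision of the change thus differed widely in this fit, with standard errors from 0.15 for Socs2 and Socs6 to 0.34 for Socs1. With replicate number as a block the standard error of Socs1 was 0.15.

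Socs4, Socs5, Socs6 and Socs7 form the branch with long amino-terminal regions, and Socs4, Socs5 and Socs6 have been linked to receptor tyrosine kinases such as the EGF receptor and KIT. All 4 had changes above 0, between 0.23 and 0.31, and none passed the threshold (limma adjusted p from 0.331 for Socs6 to 0.568 for Socs5). Socs6 read 9.78 and 9.53 in control and 9.99 and 9.94 in SAHA arrays, so the groups did not overlap, the nearest pair being 0.16 apart. Its change was 0.31 ± 0.15 (SE, 95% interval -0.04 to 0.66), and its other probe sets 1435492_at and 1452764_at gave 0.36 and 0.35, with SAHA arrays above control arrays in each. Socs4 read 8.50 and 8.47 in control and 8.58 and 8.85 in SAHA arrays, and the groups were apart by 0.08.

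The 4 probe sets of Socs4 did not share a direction, with 2 changes above 0 and 2 below. The probe set 1421273_at had the larger change of -0.29, with 7.51 and 7.59 in control and 7.17 and 7.34 in SAHA arrays, against 0.23 for the reporting 1455142_at. The probe set 1421275_s_at gave 0.07, and 1421274_at, at -0.06, lay under the 25th percentile on all 4 arrays. Averaged over the 4 probe sets Socs4 had a change of -0.0126, so its direction depends on the probe set read.

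Socs5 read 7.58 and 6.90 in control and 7.73 and 7.38 in SAHA arrays. Control replicate 2 was the low array and the groups overlapped, with a change of 0.31 ± 0.26 (SE) that became -0.0295 without that array. Its second probe set read 6.50 and 5.56 in control and 6.80 and 6.51 in SAHA arrays, with the same low array and a change of 0.62. Socs7, whose protein also binds adaptor proteins such as NCK, read 8.60 and 8.12 in control and 8.79 and 8.50 in SAHA arrays. Its groups overlapped, and its change of 0.28 ± 0.21 (SE) was 0.0458 when control replicate 2 was left out and 0.52 when control replicate 1 was. Of its other probe sets 1434834_at gave 0.40, whereas 1420766_at and 1438492_at gave -0.11 and -0.24.

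The genes whose pattern over the 4 arrays was most like that of Cish, by the Euclidean distance between log2 values after each gene's own mean was subtracted, were Ndrg2 at a distance of 0.05, Il18 at 0.11 and Oas1c at 0.13. They were drawn from 9096 genes with a mean above the median. For Socs2 they were Eif5 and Armc5, both at 0.05, and Tax1bp3 at 0.07. With 4 arrays many genes share a pattern, so this is a description.

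The rest of the pathway was read through 7 lists with 121 different genes, of which 118 were measured. Of these 3 passed the threshold, or 2.54%, beside 2.23% of all genes. They were Ccnd2 and Irf4 on the higher side and Spsb1 on the lower.

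Upstream of the family, none of 10 JAK kinases and STAT factors passed, with 6 changes above 0 and a median of 0.08. Stat4, the STAT of IL-12 signalling, had the largest change, with 10.23 and 10.96 in control and 9.12 and 9.89 in SAHA arrays (-1.09 ± 0.32, SE, limma adjusted p = 0.154), and it ranged from -0.71 without SAHA replicate 1 to -1.48 without SAHA replicate 2. Stat5b, a STAT that induces Cish and Socs2, had a change of 0.42 ± 0.15 (0.222). Of 21 measured cytokines that signal through JAKs 18 had changes below 0 and none passed, with a list median of -0.14. The median change was -0.05 over all genes and 0.03 over genes above the median level. Of the 21, 13 lay above the 25th percentile on all arrays, and most lay below the median level of genes. The largest change was that of Il6, with 8.16 and 10.24 in control and 6.19 and 7.99 in SAHA arrays (-2.11 ± 0.78, limma adjusted p = 0.232), followed among genes above the median level by Il12b at -0.84. Il6 passed when control replicate 1 was left out (-3.15, limma adjusted p = 0.0417) and had a change of -1.07 when control replicate 2 was.

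None of 28 cytokine receptor chains passed, with 13 changes above 0, 15 below and a median of -0.01. Csf3r, the G-CSF receptor that Socs3 restrains, had a change of -0.92 ± 0.34 (SE, limma adjusted p = 0.236) and Il15ra one of -0.91. Csf3r had -0.40 without SAHA replicate 1 and -1.43 without SAHA replicate 2, and Il15ra -0.43 without control replicate 2 and -1.38 without control replicate 1. Csf2ra, the alpha chain of the GM-CSF receptor, named after its values were seen, read 13.03 and 12.56 in control and 12.09 and 11.75 in SAHA arrays. The groups did not overlap, and its change was -0.87 ± 0.19 (SE, limma adjusted p = 0.0830). The beta chain genes Csf2rb and Csf2rb2, also named after their values were seen, lay on the other side, at 0.17 and 0.21. Both SAHA arrays lay above both control arrays in each, and neither passed (limma adjusted p = 0.418 and 0.367).

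Among other inhibitors of cytokine signalling, such as the PIAS proteins and the phosphatases SHP-1 (Ptpn6) and SHP-2 (Ptpn11), none of 14 passed, with 7 changes on each side of 0 and a median of 0.03. The largest were those of Dusp1, a phosphatase of MAP kinases, at -0.63 and of Pias4 at 0.38. Dusp1 passed when control replicate 1 was left out (-0.85, limma adjusted p = 0.0435) and had -0.41 when control replicate 2 was, and Pias4 then had 0.59 and 0.17. The partners of the SOCS box in the ubiquitin ligase also showed no call among 8, with a median of 0.12. Elongin B (Elob) had a change of 0.25 ± 0.11 (SE, limma adjusted p = 0.300), and the cullin gene Cul2 one of 0.16. Cul5, the other cullin gene on the list, lay below the median level and also had a change of 0.16. It was named after its value was seen.

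Spsb1, a SOCS box protein outside the family that marks inducible nitric oxide synthase for degradation, fell 2.07-fold with SAHA. It read 8.75 and 9.08 in control and 7.78 and 7.95 in SAHA arrays, and the groups lay well apart. The log2 change was -1.05 ± 0.17 (SE, limma adjusted p = 0.0417). Its further probe sets gave -0.67 and -0.65, and -0.14 where all values were under the 25th percentile. The call was lost without SAHA replicate 1 (-0.96, limma adjusted p = 0.240), SAHA replicate 2 (-1.14, 0.115) or control replicate 2 (-0.89, 0.0812), and with probe sets averaged (-0.63, 0.0846). It was the only 1 of 16 such genes to pass in this fit. The list had a median of 0.05, with Spsb4 at -0.61, or -0.37 without control replicate 1.

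Ccnd2, the cyclin D2 gene that cytokines induce through STAT5, rose 3.77-fold with SAHA. It read 9.40 and 10.05 in control and 11.48 and 11.80 in SAHA arrays, a log2 change of 1.92 ± 0.23 (SE, limma adjusted p = 0.0205). All 7 of its probe sets had changes above 0, from 1.37 to 2.30, the last in a probe set with 1 array under the 25th percentile. Its call was lost without SAHA replicate 1 (2.07, limma adjusted p = 0.0716) and without SAHA replicate 2 (1.76, 0.0680). Irf4, a transcription factor of dendritic cells grown with IL-4, rose 1.75-fold, from 9.73 and 9.55 to 10.48 and 10.42. Its change of 0.81 ± 0.14 (SE, limma adjusted p = 0.0431) was 0.26 in its other probe set, and the call was lost with the probe sets averaged (0.53, 0.215), and also when control replicate 2 (0.105), SAHA replicate 1 (0.279) or SAHA replicate 2 (0.154) was left out. Quantile normalization also ended the calls of Irf4 (limma adjusted p = 0.0507) and Spsb1 (0.0521), an offset of 32 on the linear scale that of Spsb1 (0.0501), and a test of genes above the median level alone that of Irf4 (0.0532). With values raised to the 20th percentile none of the 3 passed (limma adjusted p from 0.171 to 0.189), nor did any other gene (3034 at an unadjusted p under 0.05). The log2 changes of these 3 genes were not altered by it. Their standard errors there were 0.30 for Ccnd2, which is larger, and 0.08 for Irf4 and 0.16 for Spsb1, which are smaller.

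These were 2 of 22 measured STAT5 and STAT6 responsive genes outside the family, with 11 changes on each side of 0 and a median of -0.0027. Arg1, an IL-4 responsive arginase, had the largest change at -3.60 ± 0.90 (SE, limma adjusted p = 0.111), with SAHA replicate 1 under the 25th percentile. It passed when control replicate 1 was left out (-4.84, limma adjusted p = 0.0159) and had -2.36 when control replicate 2 was. Pim1, a kinase gene that is a standard readout of STAT5, named after its value was seen, had a change of 0.37 (limma adjusted p = 0.227).

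**Figure D3:**
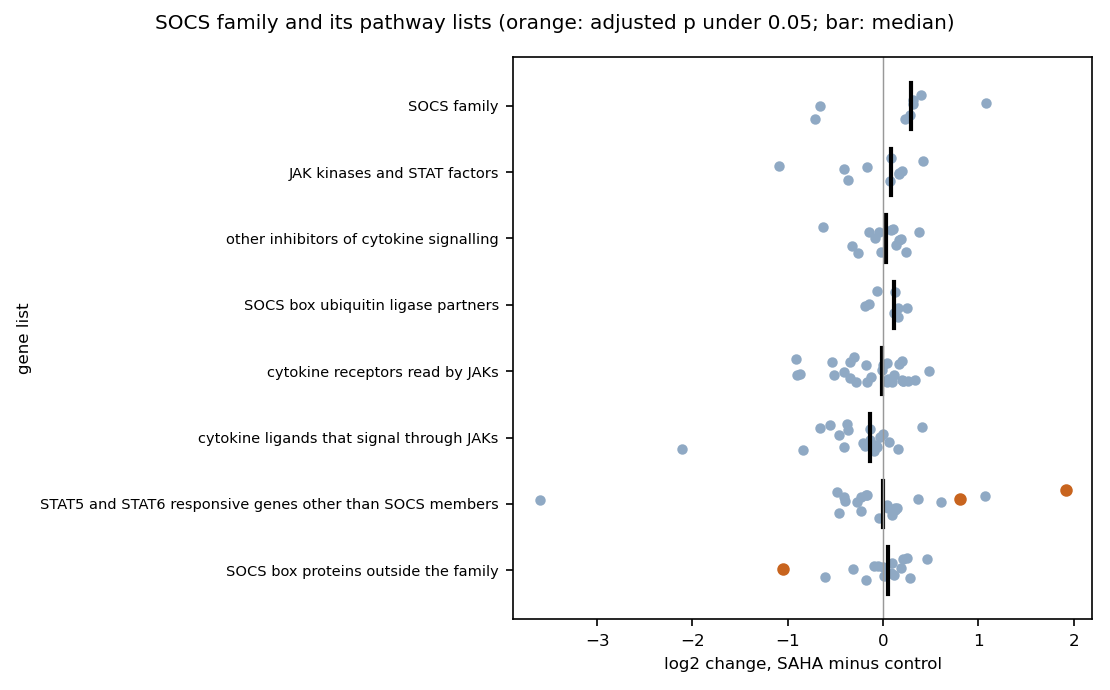
Log2 change, SAHA minus control (horizontal axis), of each measured gene in the SOCS family and in 7 pathway lists (vertical axis), with orange for genes at an adjusted p under 0.05 in limma and a black bar for the list median. Spsb1 is the orange point on the lower side, Irf4 and Ccnd2 are those on the higher side, and Arg1 and Il6 lie far below 0 without passing.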

How the data were processed

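The values are those the authors deposited, 1 per probe set and array, taken as log2 because they run from 2.59 to 15.0. Their summarisation and normalization method was not given in the sources used here; R 2.7 appears in the submitters' processing notes. Array medians lay within 0.0118, so the values were kept. Arrays have no read depth, and their number limits the precision. Groups came from the sample titles. Of 45101 probe sets 34958 had 1 gene symbol in the platform annotation, 932 several and 9211 none. Symbols were updated by Entrez identifier (34754 matched), which gave 18194 genes. SAHA and control were compared in R 4.3.3 using limma 3.58.1 (lmFit, eBayes with intensity trend, no filter or covariate, adjustment over all genes). The fit was also run on simulated data with independent noise for each array. That run cannot show how the fit behaves where same-numbered arrays deviate together. Probe set values under the 25th percentile of their array are called low. Of the pathway lists, the genes given with values were those past the threshold and, in each list, the 2 largest changes above the median level. Csf2ra, Csf2rb, Csf2rb2, Cul5 and Pim1 fell outside this rule and were named after their values were seen. So were the markers Mertk and Dpp4. Another pathway list is not reported here. Members and lists were chosen with earlier results of these data known.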

Additional observations from a re-analysis of the deposited data

How the results depend on the processing

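The number of arrays, 2 in each group, limits every value. The count of 405 genes was 0 when values under the 20th percentile were raised to it (limma; 3034 at an unadjusted p under 0.05), 226 among genes above the median level alone, 8 at a threshold of 0.01, and 31 to 529 without each array in turn, where the lone array of a group takes its spread from the other group. No member passed in limma (2 at an unadjusted p under 0.05) or in the alternatives, except 0 to 1 without each array in turn (Cish). With replicate number as a block 3616 of all 18194 genes and 3 of the 8 members passed. The members were Cish (limma adjusted p = 9.93e-05), Socs2 (0.000222) and Socs1 (0.00747). Of the 12 named pathway genes without a call 11 passed too, but these had been named for the size of their change in these data. They were Arg1 (7.28e-08), Il6 (8.86e-07), Stat4 (1.41e-05), Il15ra (0.000239), Il12b (0.000273), Csf3r (0.00110), Dusp1 (0.00136), Spsb4 (0.0064), Pias4 (0.0328), Stat5b (0.0363) and Elob (0.0423). Deviations of same-numbered arrays correlated at 0.567 across genes. The labels do not say that a number marks a shared culture, so these calls were not used. The family median of 0.30 was 0.21 with probe sets averaged and 0.12 to 0.34 without each array in turn. Directions turned for Socs3 when control replicate 1 was left out (-0.11, in a range of -0.11 to 0.91 without each array in turn), Socs5 when control replicate 2 was (-0.0295, in a range of -0.0295 to 0.65) and Socs4 with probe sets averaged (-0.0126). The other 5 members kept their direction in all 15 alternatives. The cause was not tested.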
